A study of Homo sapiens with 6 samples.

Results

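The 6 genes described here encode carbonic anhydrases (CA9, CA12 and CA2) and bicarbonate transporters (SLC4A2, SLC4A4 and SLC4A7). They were chosen by name from their known role in acid-base handling, with earlier results of these data known. Of these 6, 4 were measured among the 22153 genes of the table, and CA2 and SLC4A4 were not analysed here. Of the 4, SLC4A2 and SLC4A7 passed the filter on low values (1 FPKM, that is reads scaled for exon length and library size, in at least 3 libraries), and CA9 and CA12 did not. The cells were EA.hy926, an established human hybrid line of umbilical vein endothelium and the lung carcinoma line A549. Polyadenylated RNA was sequenced from 3 normoxia libraries (20% oxygen) and 3 hypoxia libraries (1% oxygen for 8 h), from cultures grown close to confluence, with no other treatment or genetic change stated in the labels. The series asks which genes change with hypoxia in this line.

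Carbonic anhydrases interconvert carbon dioxide and bicarbonate with a proton. CA9 and CA12 sit in the plasma membrane with the active site outside the cell, and CA9 is a textbook target of the hypoxia-inducible factors (HIF). SLC4A2 exchanges chloride for bicarbonate and so loads the cell with acid, whereas SLC4A7 brings in bicarbonate with sodium and extrudes acid equivalents. Cells that rely on glycolysis also export protons with lactate through the monocarboxylate transporters, and the vacuolar proton pump acidifies lysosomes and other compartments.

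Each library held from 17226736 to 18652704 reads assigned to genes. Of 12 endothelial markers 10 passed the filter, among them PECAM1 with 10421 to 21778 reads per library, while CLDN5 had at most 5 reads in any library and EMCN at most 4. Of 9 epithelial markers of the carcinoma parent 8 were measured and 4 passed the filter. KRT7, KRT8 and KRT18 had 9973 reads or more in every library, MUC1 had 28 to 124, KRT19 and EPCAM had at most 20, and SFTPB and SFTPC at most 3. The summed epithelial markers also overlapped, at 55489 to 89053 scaled reads (reads divided by the library's size factor) in normoxia and 48492 to 79319 in hypoxia. The summed endothelial markers overlapped between the groups, at 76692 to 141571 scaled reads in normoxia and 80987 to 185682 in hypoxia. Of 6 erythroid markers, listed because red cells are rich in carbonic anhydrase, 1 was measured, ALAS2, with 2 reads in 1 library. Leukocyte markers summed to at most 99.4 scaled reads in a library and fibroblast and mural markers to at most 233. Separate cultures for the replicates are not stated in the labels, and p-values here reflect the variation among these libraries alone, and that variation may be technical. In a bulk RNA sample, fewer cells that make a transcript and less of it per cell cannot be told apart.

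HIF binds DNA at the core ACGTG or GCGTG, so the windows before the start sites of the measured members were searched for these letters on both strands. RefSeq (GRCh38.p14) gave 1 window for CA9, 1 for CA12, 4 for SLC4A2 and 2 for SLC4A7, each of the 250 bases before a start. ACGTG occurred in 18.5% of all 35116 such windows, and either core in 43.2%. For each member 30 bases around the ACGTG nearest to a start, or the GCGTG where it had no ACGTG, are printed 5′ to 3′ on the strand of the gene, with the matched letters in capitals, to show where the searched letters lie.
CA9, chr9:35673898-35673927, plus strand: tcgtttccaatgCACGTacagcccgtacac
CA12, chr15:63382063-63382092, minus strand: gcggatctcaccCACGCctgccagcagctc
SLC4A2, chr7:151062563-151062592, plus strand: gcccagaggggCACGTGactgggaaggggc
SLC4A7, chr3:27484477-27484506, minus strand: cggggcggggggGCGTGtcttgcctggccc

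The window of CA9 held 1 match, ACGTG read on the opposite strand, which lies 18 to 14 bases before the RefSeq start. A HIF site beside the start of CA9 is known from earlier work. The window of CA12 held no ACGTG and 1 GCGTG on the opposite strand, 234 to 230 bases before the start. The stretches of CA9, CA12 and SLC4A2 lie inside an exon of GENCODE 29, and that of SLC4A7 does not. SLC4A2 had ACGTG in 2 of its 4 windows, which overlap each other. The capitals printed for it are the palindrome CACGTG, which counts as a match on both strands and is also the core bound by MYC-type factors. Neither window of SLC4A7 held ACGTG, and 1 of them held GCGTG. A match is a description of the letters, and no binding was measured.

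CA9 was all but absent in normoxia and detectable in every hypoxia library. It had 2, 0 and 0 reads in normoxia replicates 1 to 3 and 10, 38 and 24 in hypoxia replicates 1 to 3. A count of 0 allows up to 3 reads in a library. The groups did not overlap, and hypoxia replicate 2 was the highest. Summed over the libraries, 72 reads in hypoxia stood against 2 in normoxia, a ratio of 37.0 after size factors, with a 95% exact interval of 9.88 to 311 that covers counting error only. Even the highest hypoxia library reached only 1.32 FPKM, a low level.

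Whether CA9 passed a test over all genes depended on the tool. The exact permutation test of the difference in mean scaled reads gave p = 0.10, two-sided, the smallest that 3 libraries against 3 allow. DESeq2 on the recovered reads gave a log2 fold change of 5.18 (SE 1.30, adjusted p = 0.0273), and with this tool 0.26% of 20006 genes were called higher in hypoxia. The call was lost without normoxia replicate 2 (adjusted p = 0.321), hypoxia replicate 2 (0.999) or hypoxia replicate 3 (0.187). edgeR gave an adjusted p of 0.438 with its filter on low counts and 0.0495 without it, a setting that called 0.131% of genes higher. limma on genes with a mean of at least 10 scaled reads gave 2.78 on the log2 scale (95% interval 1.73 to 3.82, adjusted p = 0.136). CA9 passed that filter only through hypoxia, with mean scaled reads of 0.706 in normoxia and 24.2 in hypoxia. A listed gene with 2 reads in all, SLC4A9, had no DESeq2 adjusted p, and CA9 had 2 reads in normoxia. Its hypoxia reads thus also placed it among the genes tested with DESeq2. The limma and DESeq2 fits of CA9 are therefore descriptions and no separate support.

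CA9 (ENSG00000107159) lies on chromosome 9 from 35673856 to 35681159 (GENCODE 29, GRCh38, plus strand). Its exons span 1670 bp, of which 643 bp (38.5%) are shared with ARHGEF39 on the opposite strand, and whether reads were counted by strand was not given in the sources used here. ARHGEF39 had 49, 49 and 96 reads in normoxia and 64, 36 and 69 in hypoxia. Its groups overlapped, and its lowest library was hypoxia replicate 2. Whether reads of ARHGEF39 entered the count of CA9 was not tested.

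**Figure D1:**
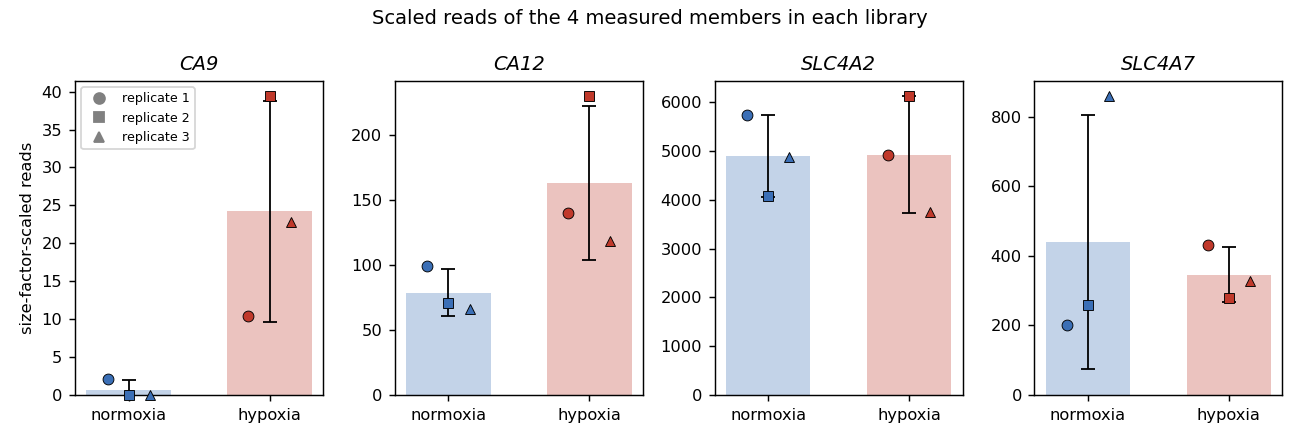
Size-factor-scaled reads (vertical axes, each from 0) of CA9, CA12, SLC4A2 and SLC4A7 in the 3 normoxia and 3 hypoxia libraries. Bars are group means, error bars are SDs and symbols are replicates; the groups are apart for CA9 and CA12, while SLC4A2 overlaps and SLC4A7 has 1 high normoxia library at 860 scaled reads.

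CA12, the other membrane enzyme, was present in both groups and about 2.07-fold higher in hypoxia. Normoxia replicates 1 to 3 stood at 99.6, 71.0 and 65.8 scaled reads, and hypoxia replicates 1 to 3 at 140, 230 and 119. All hypoxia libraries lay above all normoxia libraries, with the group means at 78.8 ± 18.2 and 163 ± 59.1 (SD, n = 3 each). CA9 and CA12 both had this order. Among 13255 genes with a mean of at least 10 scaled reads it was seen in 4.47%. CA9 entered that set only through its hypoxia reads, so the share is a background for CA12 alone.

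The difference in CA12 did not pass any test over all genes. The exact permutation test gave p = 0.10, two-sided, again the smallest possible. limma on genes with a mean of at least 10 scaled reads gave 0.91 on the log2 scale (95% interval 0.11 to 1.70, unadjusted p = 0.0298, adjusted p = 1.00). DESeq2 gave 1.05 (SE 0.41, unadjusted p = 0.0102, adjusted p = 1.00). The log2 ratio of group means was 1.05 with all libraries and 0.72 without hypoxia replicate 2, with the groups still apart. CA12 (ENSG00000074410) lies at 63321378 to 63382161 of chromosome 15, minus strand, and its exons overlap no other annotated gene.

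Per length, neither enzyme led the 8 carbonic anhydrases measured, of 15 listed. CA11, a member of the family without catalytic activity, held 78.6% to 92.8% of the summed FPKM of the 8 carbonic anhydrases measured. It averaged 13.6 FPKM in normoxia and 13.8 in hypoxia. CA12 came next by group mean, at 0.603 ± 0.139 FPKM in normoxia and 1.25 ± 0.453 in hypoxia (SD, n = 3 each). In normoxia replicate 3 CA12 stood below CA13, at 0.504 against 0.781 FPKM. CA9 averaged 0.0237 FPKM in normoxia and 0.811 in hypoxia. Its share of the summed FPKM was 0.476%, 0% and 0% in normoxia, compared with 2.64%, 7.70% and 3.96% in hypoxia. The mitochondrial enzyme CA5B, the cytosolic CA7 and CA13, the secreted CA6 and the membrane enzyme CA14 stood at means of 0.403 FPKM or less in either group. CA13 was highest in normoxia replicate 3, at 77.1 scaled reads against 19.9 to 32.2 in the other libraries. The plot of levels per exon length shows CA9 at or near the floor in normoxia and below CA12 in every hypoxia library. These levels divide by all 1670 bp of the CA9 exons. If reads in the 643 bp shared with ARHGEF39 went uncounted, the level of CA9 is understated. Its order against CA12 in hypoxia is therefore uncertain.

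**Figure D2:**
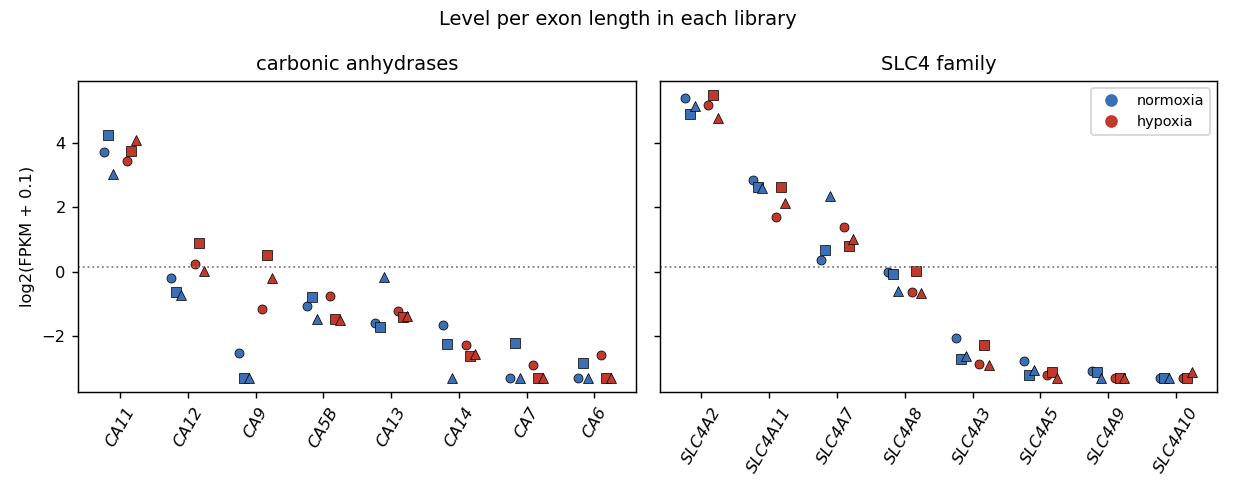
Level per exon length, as log2(FPKM + 0.1) on the vertical axis, of the 8 measured carbonic anhydrases (left) and the 8 measured SLC4 genes (right), ordered by mean. Each symbol is a library (circle, square and triangle for replicates 1 to 3, blue normoxia, red hypoxia) and the dotted line is 1 FPKM. CA11 and SLC4A2 lead the measured genes of their families. CA9 is at or near the floor of the axis in normoxia and below CA12 in each hypoxia library. The level of CA9 uses its full exon length, part of which is shared with ARHGEF39.

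SLC4A2, the chloride-bicarbonate exchanger, was the most abundant member and differed little between the groups. It stood at 5743, 4072 and 4880 scaled reads in normoxia replicates 1 to 3 and at 4914, 6134 and 3745 in hypoxia replicates 1 to 3. The groups overlapped fully, with the highest and the lowest value both in hypoxia. The means were 4898 ± 835 and 4931 ± 1194 (SD, n = 3 each). limma, fitted over all genes that passed the filter, gave -0.0052 on the log2 scale (SE 0.25, 95% interval -0.58 to 0.57, adjusted p = 1.00), so a difference within this interval in either direction could not be told from 0. The sign turned with TMM scaling, where the difference was 0.027.

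At 36.2 FPKM over all libraries SLC4A2 held 75.6% to 85.3% of the summed FPKM of the 8 measured SLC4 genes. SLC4A2 (ENSG00000164889) lies at 151057210 to 151076527 of chromosome 7, plus strand. Its exons share 331 bp (4.36%) with CDK5 on the opposite strand, which had 567 to 949 reads. A further 714 bp are shared with the antisense gene ENSG00000244151, which had at most 4 reads in any library.

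SLC4A7, the sodium-bicarbonate cotransporter, varied more between libraries than between groups. Normoxia replicates 1 to 3 stood at 201, 259 and 860 scaled reads, and hypoxia replicates 1 to 3 at 432, 279 and 328. A single library, normoxia replicate 3, lay far above the others and put the normoxia mean of 440 ± 365 above the hypoxia mean of 346 ± 78.4 (SD, n = 3 each). The limma log2 difference was -0.067 (SE 0.52, 95% interval -1.27 to 1.14, adjusted p = 1.00). Without normoxia replicate 3 its sign turned, to 0.55 (95% interval -0.14 to 1.23, adjusted p = 0.834), and all 3 hypoxia libraries then lay above the remaining normoxia libraries.

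Normoxia replicate 3 stood apart over the whole table. It was the highest of the 6 libraries in 27.4% and the lowest in 28.3% of the tested genes, against at most 22.4% and 19.9% for any other library. Its deviation from the gene means went down with GC content across genes (Spearman rho -0.58), as a description over genes that are not independent. The rho was 0.70 for normoxia replicate 1 and 0.51 for hypoxia replicate 2, the libraries in which SLC4A7 was lowest within their groups. The transcripts of SLC4A7 are 40.0% GC, below the median of 50.1% over tested genes, and those of SLC4A2 are 63.0% GC. Those of CA9 are 58.8% and those of CA12 50.5% GC. Both enzymes were highest within their groups in normoxia replicate 1 and hypoxia replicate 2. Neither has a GC-corrected value, and a part of the GC trend in their differences was not tested. After a correction of each library for GC content the log2 difference of SLC4A7 was -0.079, with an SE of 0.26 in place of 0.52 (95% interval -0.68 to 0.52, adjusted p = 1.00). Without normoxia replicate 3 the log2 difference of SLC4A2 was -0.00081, and the log2 ratio of means of CA12 was 0.93. SLC4A7 (ENSG00000033867) lies at 27372721 to 27484420 of chromosome 3, minus strand, and its exons overlap no other annotated gene.

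Likeness of other genes to the transporters was measured as the root mean square difference of log2(FPKM + 0.1), centred on each gene's own mean, over the 6 libraries. The nearest to SLC4A7 were RASSF8 (0.080), PPIG (0.087) and CISD2 (0.096), beside a median of 0.71 over 9229 protein-coding genes. All of these were highest in normoxia replicate 3, which follows from their choice by likeness to SLC4A7. Their transcripts were 38.6% to 40.9% GC. The nearest to SLC4A2 were SPATA2L (0.056), SNAPC2 (0.057) and NFKBIE (0.062), beside a median of 0.39. Their transcripts were 61.4% to 68.1% GC. These differences describe 6 libraries, and as the smallest among the genes compared they lie below the median by choice.

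**Figure D3:**
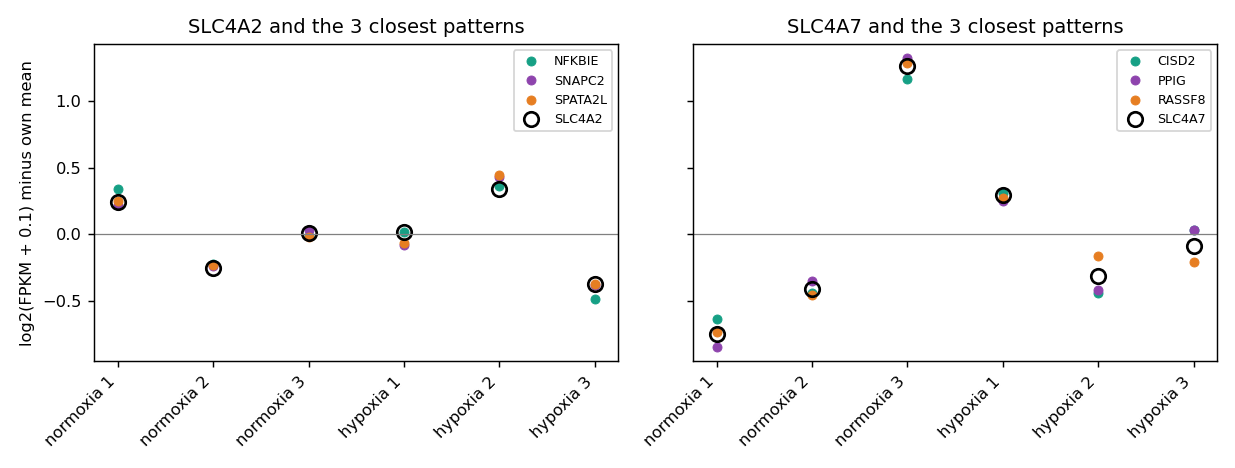
log2(FPKM + 0.1) minus the gene's own mean (vertical axis) in each of the 6 libraries for SLC4A2 (left) and SLC4A7 (right), open circles, with the 3 protein-coding genes closest in pattern, filled circles. SLC4A7 and its neighbours are more than 1 log2 unit above their means in normoxia replicate 3, and SLC4A2 and its neighbours are highest in hypoxia replicate 2 and normoxia replicate 1.

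In order of level per full exon length, SLC4A2 averaged 36.2 ± 6.80 FPKM, SLC4A7 2.29 ± 1.41, CA12 0.926 ± 0.463 and CA9 0.417 ± 0.531 (SD over 6 libraries). SLC4A2 stood above the others in every library. The ranges of SLC4A7 (1.17 to 5.01 FPKM) and CA12 (0.504 to 1.76) overlapped, as did those of CA12 and CA9 (0 to 1.32).

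Of the members tested with limma, 0 of 2 passed an adjusted p of 0.05, and 0 had an unadjusted p under 0.05. Over all 10237 genes tested, 0.0977% passed and 275 genes had an unadjusted p under 0.05. With DESeq2 1 of the 4 measured members was called higher, CA9, beside 0.26% of all genes. As CA9 was tested there through its hypoxia reads, this call is a description. With edgeR and its filter 0 of the 4 were called, beside 0.0674% of 13354 genes, and without the filter 1 was, CA9. Around the members, 7 lists of acid-base genes held 96 genes, of which 76 were measured and 46 passed the filter. With limma 0 of these 46 passed in either direction and 2 had an unadjusted p under 0.05, beside 275 of all 10237 genes. Of 73 listed genes tested with DESeq2, 2 were called higher, CA9 and SLC16A3, and 0 lower, beside 52 higher and 6 lower of 20006 genes. Of 56 listed genes tested with edgeR and its filter, 0 were called. The groups did not overlap for 4 of the 46, 2 higher and 2 lower, beside 7.48% of all genes tested.

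The proton-coupled lactate transporters held the largest difference among the listed genes tested with limma. SLC16A3, the monocarboxylate transporter of glycolytic cells, stood at 6125, 4906 and 1986 scaled reads in normoxia replicates 1 to 3 and at 13212, 20698 and 13650 in hypoxia replicates 1 to 3. Every hypoxia library was more than 2 times any normoxia library, and normoxia replicate 3 was the lowest. The fold of the means was 3.65. The limma log2 difference was 1.98 (SE 0.42, 95% interval 1.01 to 2.95), which did not pass over all genes (adjusted p = 0.439). DESeq2 called it (log2 1.87, adjusted p = 0.00499), except without hypoxia replicate 2 (adjusted p = 0.264), and limma did so after the GC correction (adjusted p = 0.0357). Without normoxia replicate 3 the 95% interval of the limma log2 difference was 0.88 to 2.11 (adjusted p = 0.131). The adjusted p ranged from 0.000234 to 1.00 over all alternatives.

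Its exons share 482 bp (5.36%) with CSNK1D on the opposite strand, whose groups overlapped at 1892 to 4284 reads. BSG, the chaperone that carries these transporters to the membrane, stood at 35488 ± 6574 and 38942 ± 8101 scaled reads (SD, n = 3 each), a log2 difference of 0.13 (95% interval -0.41 to 0.67). SLC16A1, the more widely expressed transporter, stood at 1097 ± 310 and 1148 ± 366. The 3 tested genes of this list were positive, with a median of 0.13 beside 0.0035 over all genes tested.

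The list of bicarbonate transporters gave no gene past the limma test. Of 16 listed, 5 were tested, SLC4A2 and SLC4A7 among them, and 4 were negative. The median log2 difference of these 5, which is the value of SLC4A7, was -0.067. SLC26A11, named after its value was seen because it completes the 5, was at -0.26. SLC4A11, a family member that carries protons rather than bicarbonate, stood at 550, 472 and 465 scaled reads in normoxia and 244, 477 and 337 in hypoxia. Its limma log2 difference was -0.53, with a 95% interval of -1.20 to 0.14. The anion exchanger SLC26A6 stood at 154, 98.5 and 61.1 in normoxia and 128, 222 and 135 in hypoxia. Its limma log2 difference was 0.62, with a 95% interval of -0.33 to 1.57. The groups overlapped for both genes. CA11, the only carbonic anhydrase tested, had a log2 difference of 0.079 (95% interval -0.71 to 0.87).

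Sodium-proton exchangers and their partners also held no gene past the test. Of 15 listed, 9 were tested and 6 were negative, with a median of -0.066. NHERF1, a scaffold that anchors an epithelial exchanger, stood at 1903, 1784 and 2039 scaled reads in normoxia and 1103, 1408 and 1208 in hypoxia. Its groups did not overlap, and its log2 difference was -0.63 (95% interval -1.07 to -0.18, unadjusted p = 0.0119, adjusted p = 1.00). SLC9A7, an exchanger of the Golgi, stood at 236 ± 32.3 and 206 ± 63.5 scaled reads (SD, n = 3 each).

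For the vacuolar proton pump all 25 listed subunits and accessory proteins were measured and 19 tested, and 0 passed the test, with 12 positive and 7 negative and a median of 0.079. The summed list held 28854 to 30628 scaled reads in normoxia and 29061 to 30880 in hypoxia. ATP6V0C, of the proton-carrying ring, had a log2 difference of 0.54 (95% interval -1.07 to 2.14) on 17.9 to 141 scaled reads per library, and ATP6V0A1, of the membrane sector, -0.50 (95% interval -1.17 to 0.18).

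The lists of proton sensors and of regulators of bicarbonate transporters held 0 genes past the limma test. Of 12 sensors 3 were tested, with a median of -0.021. The endothelial receptor GPR4 stood at 200 ± 69.5 and 144 ± 61.5 scaled reads (SD, n = 3 each), and the acid-activated chloride channel PACC1 at 282 ± 35.0 and 327 ± 34.1. Of 7 regulators 6 were tested, with a median of -0.13. WNK1, the kinase at the head of the pathway, stood at 1689 ± 82.8 and 1372 ± 668, and its target OXSR1 at 769 ± 82.1 and 899 ± 59.9. The groups overlapped for all 4 of these genes.

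**Figure D4:**
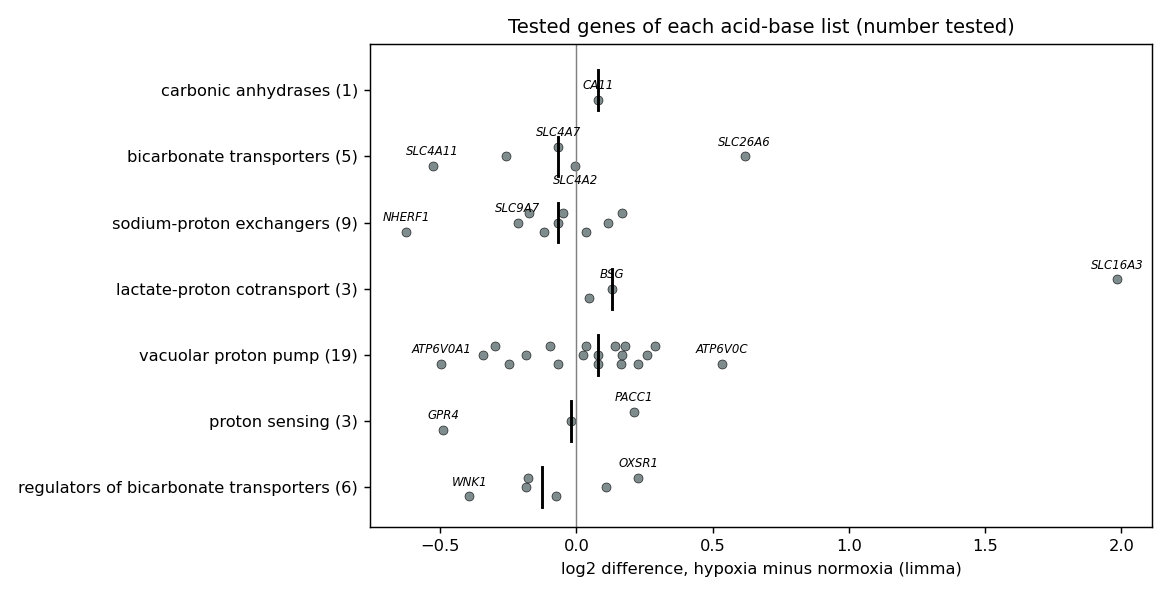
limma log2 differences, hypoxia minus normoxia (horizontal axis), of the tested genes of each list; the number tested stands in brackets, dots are genes and black lines are list medians. All 46 genes lie between -0.63 and 0.62 except SLC16A3 at 1.98.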

How the data were processed

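Although named for FPKM, the deposited table holds a signal that is gene counts divided by 1 size factor per library. In each library 100% of values were whole multiples of what 1 read is worth (tolerance 0.05 read), so whole reads were recovered by division. Per the submitters' processing notes, CASAVA, HISAT2 2.0.5 and featureCounts 1.5.0-p3 were used. The notes name a mouse build, while all identifiers are human. The build, annotation and strand setting were not given in the sources used here. All 22153 identifiers were found in GENCODE 29, and 21988 had a symbol.

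Values were divided by summed exon length and mean library total to give FPKM. Genes at 1 FPKM or more in at least 3 libraries (10237) were fitted as log2(FPKM + 0.1) by limma 3.58.1 in R 4.3.3, comparing the groups with no covariate, with trended and robust variances. Its p-values are two-sided and adjusted over all tested genes (Benjamini-Hochberg). Fold changes on this scale understate those of low genes. DESeq2 1.42.0 and edgeR 4.0.16 (quasi-likelihood) were run on recovered reads as alternatives. Members below the filter were compared by an exact permutation test. Intervals on counts are Clopper-Pearson. The script was tested on simulated data. Values with ± are means and SDs of scaled reads unless FPKM is named.

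The members and lists were chosen with earlier results of these data known. Named genes were the members, up to 4 genes past the test or otherwise the 2 with the largest differences in each list, and the 3 genes nearest in pattern to each tested member. CA2 and SLC4A4 were not analysed here. Promoter sequences are from RefSeq (GRCh38.p14).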

Additional observations from a re-analysis of the deposited data

How the results depend on the processing

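The alternatives were other pseudocounts, filters, scalings and tools, a GC correction, a replicate block and leaving out each library. Alternatives chosen after seeing the data were edgeR without a filter and DESeq2 without each library. Over the single-gene results 272 of 298 values kept their direction and side of the threshold, 13 turned sign and 13 newly passed it. For CA9 and CA12 some of these values were judged by the permutation test, whose p cannot fall below 0.10. Their side of the threshold was fixed in advance, so only their direction could change. Pseudocounts, the replicate block and the GC correction keep the filter and gave no value for CA9 or CA12, nor did leaving out normoxia replicate 1 for the ratio of CA9, whose other normoxia libraries had 0 reads.

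CA9, with a log2 ratio of group means of 5.10, was called by DESeq2 (5.18) and by edgeR without a filter (4.98), and the ratio ranged from 4.51 to 5.46 with 1 library left out. DESeq2 with 1 library left out called CA9 without normoxia replicate 3 (4.57), hypoxia replicate 1 (5.55) or normoxia replicate 1, where the fitted 7.14 stands against 0 normoxia reads and is no bound. CA12 ranged from 0.72 to 1.27 over all its alternatives. SLC4A2 turned positive with TMM scaling (0.027), the GC correction (0.028), DESeq2 (0.0096) and edgeR without a filter (0.040), and ranged from -0.18 to 0.18 with 1 library left out. With 1 library left out SLC4A7 ranged from -0.46 to 0.55, CA11 from -0.24 to 0.37, SLC9A7 from -0.38 to 0.039, BSG from -0.035 to 0.28 and ATP6V0C from -0.21 to 1.19. The causes were not tested.

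The count of genes past the test was 10, and 4 with no filter, 27 with the GC correction, 58 by DESeq2, 29 by edgeR without a filter, and 1 to 24 with 1 library left out. The count of members was 0 of the 2 tested in the main limma fit. It was 1, CA9, by DESeq2 and by edgeR without a filter, which tested 4. CA9 was below the filter of the main limma fit and could not be called there. That fit tested 1 carbonic anhydrase, CA11, against 8 with DESeq2. The lactate transporter SLC16A3 was tested by both, and DESeq2 called it where limma did not. With the replicate block 19 genes passed, among them SLC16A3 (adjusted p = 0.0386). Whether equal replicate numbers mark paired cultures is not stated in the labels. The deviations of same-numbered libraries correlated at -0.40, 0.24 and 0.22, and normoxia replicate 1 correlated best with hypoxia replicate 2 (0.61). These values cannot decide on pairing, because the deviations are centred within each group. They also carry the library trends on GC content, with rho 0.70 in normoxia replicate 1 and 0.51 in hypoxia replicate 2.

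CA9 rests on 74 reads in all.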
